A study of Saccharomyces cerevisiae with 6 samples.

Results

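ANB1 and 9 other genes of the yeast response to low oxygen were followed on whole-genome expression arrays of Saccharomyces cerevisiae strains with and without CBC2. The genes were taken by symbol from the array annotation: ANB1 and HYP2, which encode the hypoxic and the aerobic form of translation factor eIF5A, and ROX1, HEM13, COX5B, CYC7, AAC3, OLE1, TIR1 and DAN1. All 10 were found, of 5656 genes that have a probe set named for a single gene, and each was read from 1 probe set without a cross-hybridisation suffix. The set was put together with this strain comparison already known, ANB1 being among the genes with the largest differences, so the values of the 10 genes are given as a description, with no test.

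The tested strain, Y2685, carries a deletion of CBC2 (cbc2Δ), and Y255 is its isogenic wild type. Cbc2 is the smaller partner in the complex that holds the capped end of messenger RNA in the nucleus. For each strain there were 3 Affymetrix Yeast Genome S98 arrays, 6 in all, with RNA of cells grown in SC medium at 30 °C to log phase (OD600 of 1.0). No other genotype of the strains is given in the labels, and no culture was deprived of oxygen per the labels. The submitters describe 6 independent experiments, though the labels name no separate cultures. The p-values therefore cover only the spread among these arrays, which may be technical.

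In air, yeast cells make haem, and haem activates the transcription factor Hap1, which turns on ROX1. Rox1 binds DNA upstream of hypoxic genes and represses them together with the Tup1 and Cyc8 corepressors. When oxygen runs short, haem and Rox1 decline, and genes for alternative forms of respiratory and translation proteins, for oxygen-requiring enzymes of haem, sterol and fatty acid synthesis, and for cell wall mannoproteins come on. Several hypoxic genes have an aerobic paralogue that is used in air, as HYP2 is for ANB1.

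CBC2 (YPL178W) was at the floor of 8.25 (the 10th percentile of the normalised intensities, to which lower values were raised) on all 3 deletion arrays, against 882, 840 and 763 on the wild-type arrays. This is a level at least 100-fold lower than in the wild type (limma adjusted p = 1.18e-08), as the labels say. The trimmed mean of the deposited intensities was 252 to 441 on the deletion arrays and 302 to 474 on the wild-type arrays, and the values were quantile normalised, so all intensities below are relative to the array as a whole. All 3 deletion arrays and wild-type replicate 3 were washed on fluidics station 2, and wild-type replicates 1 and 2 on station 1. Deletion replicate 2 was hybridised and scanned on another day than the other arrays. The 3′ probe set over the 5′ probe set of one gene, a sign of RNA integrity, was 3.67 to 5.13 on the deletion arrays and 2.48 to 3.74 on the wild-type arrays for the TATA-binding protein gene, and for ACT1 it was 1.02 to 1.42 on the deletion arrays and 1.15 to 1.47 on the wild-type arrays. The part of RNA integrity in the values below was not tested.

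ANB1 (YJR047C) was higher in the deletion strain. Its normalised intensity was 82.1, 81.1 and 112 on deletion arrays 1 to 3, against 11.95, 21.0 and 25.75 on wild-type arrays 1 to 3. Every deletion array was above every wild-type array. The log2 difference (deletion minus wild type) was 2.29 (SE 0.31), a 4.88-fold ratio. Within station 2, which washed a single wild-type array (replicate 3), it was 1.82. On the deposited scale, without normalisation, the strains did not overlap either: 90.8, 79.5 and 66.9 in the deletion strain, against 13.4, 27.6 and 22.7 in the wild type. All wild-type values were below 27.9, the dim limit that the mean of a probe set over all arrays had to pass for a test, so the size of the ratio rests on near-background values, and with a pseudocount of 16 in place of the floor the log2 difference was 1.61.

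HYP2 (YEL034W), which supplies eIF5A in air, showed no such separation. It read 10119, 4899 and 5324 on the deletion arrays and 6496, 9874 and 10362 on the wild-type arrays. Deletion replicate 1 lay among the wild-type values and wild-type replicate 1 lay near the other deletion values, so the strains overlapped. The log2 difference was -0.44 (SE 0.27). It ranged from -0.77 without deletion replicate 1 to -0.070 with the arrays scaled to a common median, and was -0.25 without deletion replicate 2. The scatter of HYP2 was large for a bright probe set, with a standard deviation of 2899 around a mean of 6780 in the deletion strain and of 2106 around 8911 in the wild type (n = 3 each). The coding sequences of ANB1 and HYP2 are closely related, and probes of one could bind transcripts of the other. Among the deletion arrays, the highest HYP2 value (replicate 1) went with 82.1 for ANB1 and the lowest (replicate 2) with 81.1, whereas among the wild-type arrays ANB1 and HYP2 had the same order. The part of such binding in the ANB1 values was not tested.

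ROX1 (YPR065W), the gene of the haem-dependent repressor, was lower in the deletion strain. It read 139, 157 and 61.1 on the deletion arrays, against 245, 231 and 233 on the wild-type arrays. The wild-type arrays lay close together, all 3 deletion arrays were below them, and deletion replicate 3 was lowest. The log2 difference was -1.10 (SE 0.31), a 2.15-fold ratio. Deletion replicate 3 decided much of its size: without that array the difference was -0.68.

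HEM13 (YDR044W) encodes coproporphyrinogen oxidase, an oxygen-requiring enzyme of haem synthesis and a classical target of Rox1 repression. Its intensity was 143, 84.1 and 110 on the deletion arrays and 42.6, 34.8 and 27.1 on the wild-type arrays. The groups did not overlap, and the gap between them was wider than the range of the wild-type arrays. The log2 difference was 1.68 (SE 0.26), a 3.21-fold ratio, and 2.02 within station 2, where it was above that of ANB1. The single wild-type array of that station (replicate 3) read 27.1, below the dim limit of 27.9. With a pseudocount of 16 in place of the floor the HEM13 difference was 1.32. AAC3 (YBR085W), the anaerobic ADP/ATP carrier of the mitochondrial inner membrane, read 74.4, 68.8 and 35.7 in the deletion strain, against 24.85, 15.9 and 26.2 in the wild type. Deletion replicate 3 stood well below the other deletion arrays and only slightly above the wild type. The log2 difference of AAC3 was 1.38 (SE 0.34), and 1.71 without that replicate. On the deposited scale the AAC3 values overlapped, with deletion replicate 3 at 22 and the wild-type arrays at 27.7, 20.8 and 23.

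The hypoxic forms of respiratory proteins did not share this direction. COX5B (YIL111W), the hypoxic form of cytochrome c oxidase subunit V, read 457, 457 and 444 on the deletion arrays and 484, 384 and 499 on the wild-type arrays. The strain means, 453 ± 7.93 in the deletion strain and 456 ± 62.8 in the wild type (SD, n = 3 each), lay together inside the wild-type spread, and the SE of the log2 difference was 0.16. CYC7 (YEL039C), the hypoxic form of cytochrome c, was lower in the deletion strain: 315, 430 and 431, against 633, 634 and 573 in the wild type. All deletion arrays lay below all wild-type arrays, and the log2 difference was -0.66 (SE 0.17).

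OLE1 (YGL055W) encodes the fatty acid desaturase, which needs oxygen and makes the unsaturated fatty acids of the membrane. It read 2540, 2971 and 2907 on the deletion arrays, against 5574, 5231 and 5434 on the wild-type arrays. The deletion strain was lower on every array, by 0.95 on the log2 scale (SE 0.12), a 1.93-fold ratio. With the arrays scaled to a common median in place of quantile normalisation, the OLE1 difference was -0.59. TIR1 (YER011W), a cell wall mannoprotein gene of cold and anaerobic growth, read 140.2, 176 and 185 in the deletion strain and 162, 128 and 149 in the wild type. These values overlapped, with a log2 difference of 0.18 (SE 0.18) that was -0.15 on the deposited scale. DAN1 (YJR150C), another mannoprotein gene that is silent in air, was at the floor on all wild-type arrays and on deletion arrays 1 and 2, and read 11.9 on deletion replicate 3. Its deposited values were 6.8, 1.7 and 7.5 in the deletion strain and 2.5, 9.4 and 1.4 in the wild type, so no level above the dimmest signals was seen in either strain, and no fold is given.

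**Figure D1:**
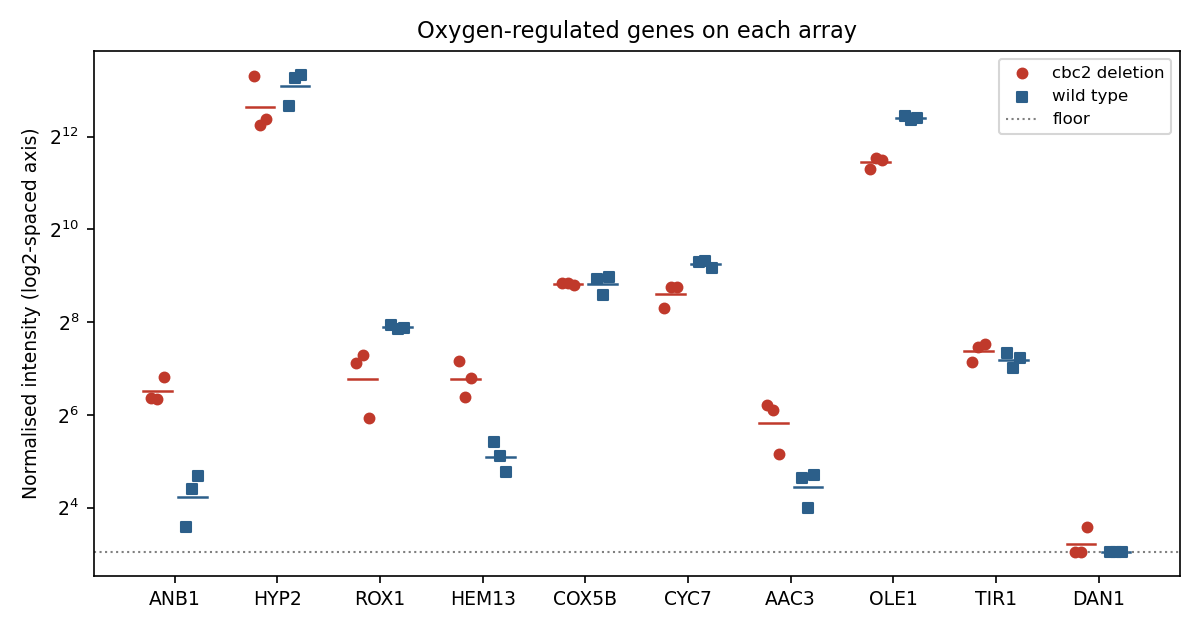
Normalised intensity of the 10 genes on each array (log2-spaced vertical axis), deletion arrays as red circles to the left and wild-type arrays as blue squares to the right for each gene, with the strain mean of the log2 values as a bar and the floor of 8.25 as a dotted line. ANB1, HEM13 and AAC3 lie higher and ROX1, CYC7 and OLE1 lower on every deletion array, while HYP2, COX5B and TIR1 overlap and DAN1 sits at or near the floor.

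Across the set, 9 of the 10 genes passed the filter that left out the dimmest 25% of probe sets, and DAN1 did not. ANB1 and AAC3 passed it only through their deletion arrays: their mean log2 levels were 6.50 and 5.83 in the deletion strain and 4.22 and 4.45 in the wild type, on either side of the limit of 4.80. For 6 of the 9 the arrays of the strains did not overlap, with 3 (ANB1, HEM13 and AAC3) higher and 3 (ROX1, CYC7 and OLE1) lower in the deletion strain, while over all features 49.8% of genes and 47.4% of probe sets did not overlap. As the 10 genes were chosen with this comparison known, nothing is read from these counts.

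**Figure D2:**
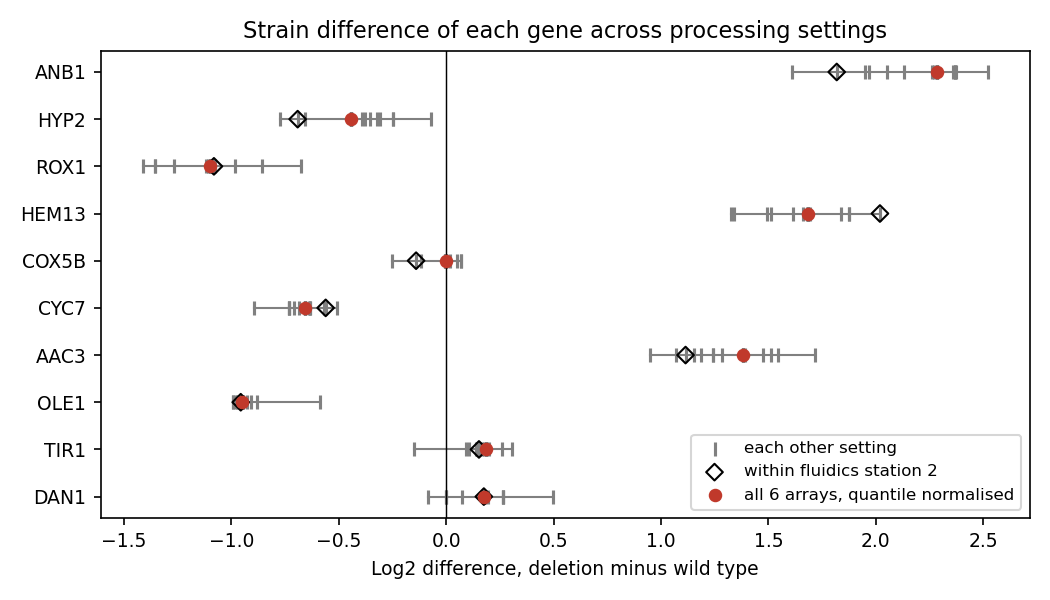
Log2 difference (deletion minus wild type) of each gene in the main setting (red), in each of 19 other settings (grey ticks joined by a line) and within fluidics station 2 (open diamond). ANB1 spans 1.61 to 2.52 and HEM13 1.32 to 2.02, both above 0 throughout, while COX5B, TIR1 and DAN1 lie on both sides of 0. Settings that alter only the dim filter, the variance model or the replicate block cannot move the log2 difference. The scan day block gives the same difference as leaving out deletion replicate 2.

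Each hypoxic gene was then set against its aerobic paralogue within every array. A factor common to an array cancels in such a ratio, but quantile normalisation does not, so the ratio from the deposited intensities is given as well. The log2 ratio of ANB1 to HYP2, with the wild-type mean set to 0, was 1.93, 2.96 and 3.31 on deletion arrays 1 to 3, against -0.21, -0.0067 and 0.22 on the wild-type arrays. The difference of 2.73 was larger than that of ANB1 alone, as the HYP2 difference was negative, and the strains did not overlap. From the deposited intensities it was 2.34. For AAC3 over PET9, the carrier used in air, the ratio was 1.50, 1.54 and 0.19 in the deletion strain, against 0.28, -0.39 and 0.11 in the wild type, and deletion replicate 3 lay inside the wild-type range (difference 1.08, and 0.81 from the deposited intensities). For COX5B over COX5A, the aerobic subunit V, it was 0.23, 0.055 and -0.067 in the deletion strain, against -0.039, -0.075 and 0.11 in the wild type, and the strains overlapped (difference 0.072, and -0.085 from the deposited intensities). For CYC7 over CYC1, the main cytochrome c gene in air, it was -0.31, -0.22 and -0.34 in the deletion strain, against 0.21, -0.042 and -0.17 in the wild type. The difference was -0.29, with the nearest arrays of the strains closer together than the wild-type SD of 0.19. It was -0.60 from the deposited intensities and -0.12 within station 2.

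HMG2 and HMG1, the hypoxic and aerobic HMG-CoA reductase genes of sterol synthesis, form another such pair outside the 10 genes. HMG1 averaged 2769 ± 527 in the deletion strain and 5098 ± 611 in the wild type (SD, n = 3 each) and fell (log2 difference -0.89, SE 0.16, limma adjusted p = 0.00319), though not past the threshold on the deposited scale (-0.85, adjusted p = 0.0658) or with the arrays scaled to a common median (-0.53, adjusted p = 0.0588). HMG2 was at 453 ± 12.8 in the deletion strain and 549 ± 21.5 in the wild type (log2 difference -0.28, SE 0.14, adjusted p = 0.17). The HMG2 to HMG1 log2 ratio was 0.74, 0.29 and 0.80 on the deletion arrays, against 0.025, 0.15 and -0.18 on the wild-type arrays, a difference of 0.61, and of 0.34 from the deposited intensities. The normalised ratios of the strains did not overlap, and a two-sided exact permutation test on them gave p = 0.1, the smallest that 3 arrays against 3 allow. From the deposited intensities the ratios did overlap. Deletion replicate 2 (HMG2 at 439.9, HMG1 at 3639.1) then lay inside the wild-type range.

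**Figure D3:**
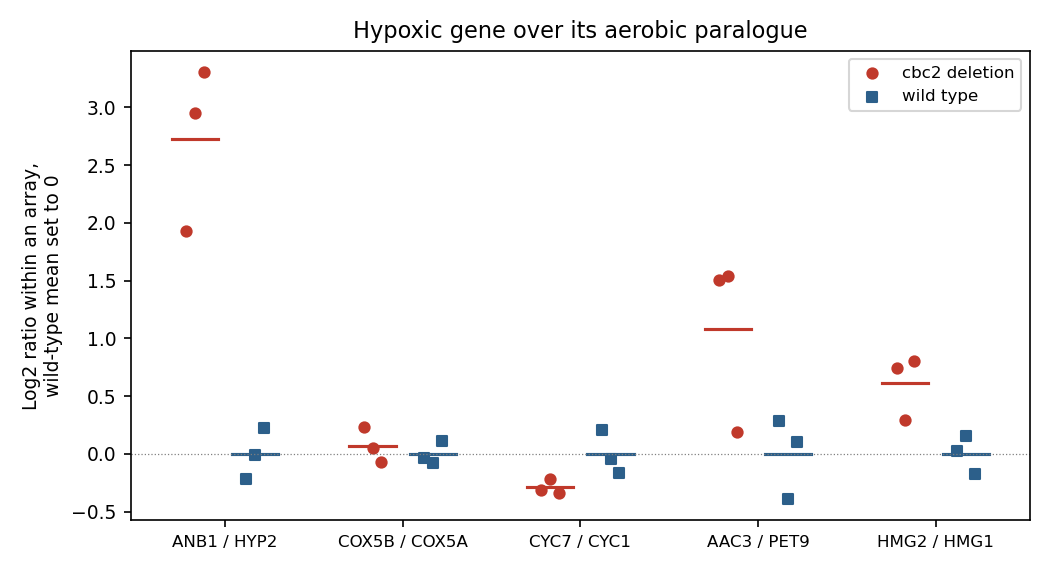
Log2 ratio of each hypoxic gene to its aerobic paralogue within an array, with the wild-type mean of each pair set to 0; red circles are deletion arrays, blue squares wild-type arrays, bars their means. The ANB1 to HYP2 ratio is 1.93 to 3.31 on the deletion arrays and -0.21 to 0.22 on the wild-type arrays, while the COX5B to COX5A ratios of the strains overlap.

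Other genes of oxygen, haem, membrane lipid and eIF5A biology were listed by their known roles, in 9 lists. The lists were chosen with earlier results of these data known, so their shares are given as a description. Of 96 genes listed, 80 were found and tested, and 11 rose and 23 fell in the deletion strain, while 46 were not called (a call is a limma adjusted p under 0.05). That is 42.5% called, 13.8% higher and 28.8% lower. These counts include 10 seripauperins, 5 of them lower, read from probe sets with a cross-hybridisation suffix that cannot be assigned to single genes. Over all 5247 genes tested, 32.6% were called, 16.3% in each direction, and over all 6956 probe sets 31.4% were, 15.2% higher and 16.2% lower. The median log2 difference of the 80 listed genes was -0.17, against 0.0035 over all genes tested. Of the listed genes, 0 rose and 9 fell on the deposited scale, and 2 rose and 8 fell with the fluidics station as a block. Over all genes tested, 120 rose and 386 fell on the deposited scale and 261 rose and 250 fell with the station block.

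Of 16 regulators of oxygen-dependent transcription tested, 4 rose, 2 fell and 10 were not called (median -0.053). The share called, 37.5%, was near the 32.6% of all genes. TUP1, the corepressor that works with Rox1, averaged 777 ± 120 in the deletion strain and 460 ± 18.5 in the wild type (log2 difference 0.75, SE 0.16, limma adjusted p = 0.0082). HAP4, the activating subunit of the complex that turns on respiratory genes, rose by 0.62 (adjusted p = 0.0166), IXR1, a DNA-binding protein of the hypoxic response, by 0.74 (adjusted p = 0.0211), and SUT1, a regulator of sterol uptake named here after its values were seen, by 0.64 (adjusted p = 0.0262). UPC2, the activator of sterol uptake and of DAN and TIR genes in low oxygen, averaged 23.6 ± 6.04 in the deletion strain and 51.3 ± 3.62 in the wild type and fell (log2 difference -1.15, SE 0.26, adjusted p = 0.0097, and -0.77 with a pseudocount of 16). UPC2 passed the dim filter only through its wild-type level. ROX3, a subunit of the Mediator complex, fell by 0.70 on the log2 scale (adjusted p = 0.00805). HAP1, which activates ROX1 in the presence of haem, was at 359 ± 75.4 in the deletion strain and 488 ± 48.0 in the wild type (log2 difference -0.46, adjusted p = 0.0921). HAP1 probe sets with a cross-hybridisation suffix gave log2 differences of -0.0067 and 0.14 (adjusted p = 0.992 and 0.824). Of the 5 named after the rule, TUP1, HAP4, IXR1 and ROX3 were not past the threshold on the deposited scale (adjusted p = 0.437, 0.684, 0.432 and 0.108), and all 5 missed it with the station block (adjusted p = 0.0697, 0.12, 0.388 and 0.0666, and 0.12 for UPC2). The station-block differences of TUP1, HAP4, ROX3 and UPC2 were 0.80, 0.64, -0.76 and -1.07, near those above. That of IXR1 was 0.31, and IXR1 also lost its call in 4 of the 6 settings that left out 1 array. SUT1 was not followed in these settings. Its deposited values overlapped, at 145.8, 130.2 and 65.4 on the deletion arrays and 77.2, 118.8 and 70.3 on the wild-type arrays.

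Genes for mannoproteins of anaerobic growth and for sterol uptake and esterification were mostly lower where they were called. Of 8 tested (of 10 listed), 1 rose, 4 fell and 3 were not called (median -0.48). That is 62.5% called and 50% lower, against 32.6% and 16.3% of all genes. PDR11, a sterol uptake transporter made in low oxygen, averaged 24.9 ± 4.44 in the deletion strain and 70.1 ± 4.85 in the wild type (log2 difference -1.51, SE 0.23, limma adjusted p = 0.00145, and -1.08 with a pseudocount of 16). It passed the dim filter only through its wild-type level. AUS1, the related transporter, fell by 1.14 (adjusted p = 0.00174), ARE2, a sterol acyltransferase, by 0.98 (adjusted p = 0.00205) and the mannoprotein gene DAN4 by 0.79 (adjusted p = 0.0202) on the log2 scale. ARE1, the other acyltransferase gene of the list, named after its values were seen, overlapped between the strains (-0.17, adjusted p = 0.472). TIR3, a mannoprotein gene related to TIR1, rose by 0.52 (adjusted p = 0.0338). ARE2 kept its call in all 19 other settings, and PDR11 in the 18 that tested it, whereas TIR3 lost its call in 8 of 19 settings and DAN4 in 5. A second AUS1 probe set without a suffix gave a log2 difference of -0.14 (adjusted p = 0.689), at 27.3 in the deletion strain and 30.2 in the wild type, close to the dim limit.

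The seripauperins, a family of near-identical genes of anaerobic growth near chromosome ends, were read only from probe sets with a cross-hybridisation suffix, so their values cannot be assigned to single genes. Of 10 tested (of 24 listed), 5 fell and 5 were not called, with no rise (median -0.68). That is 50% called, all lower, against 32.6% of all genes called and 16.3% lower. The lowest were PAU19 at -1.46 (limma adjusted p = 0.000526) and PAU3 at -1.29 (adjusted p = 0.000518), followed by PAU23 at -0.90 (adjusted p = 0.0136), PAU15 at -0.78 (adjusted p = 0.0472) and PAU13 at -0.64 (adjusted p = 0.017). PAU15 lost its call in 11 of 18 other settings.

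Of the aerobic partners, 2 of 5 fell and none rose (median -0.37). The share called was 40%, all lower, against 32.6% of all genes called and 16.3% lower. Besides HMG1, AAC1, a minor ADP/ATP carrier, fell by 0.61 on the log2 scale (limma adjusted p = 0.026), a call lost in 5 of 19 other settings. CYC1 was at 3418 ± 562 in the deletion strain and 4384 ± 414 in the wild type (log2 difference -0.37, adjusted p = 0.0913), COX5A at 1827 ± 161 in the deletion strain and 1922 ± 199 in the wild type (-0.072, adjusted p = 0.735) and PET9 at 2897 ± 422 in the deletion strain and 2340 ± 233 in the wild type (0.30, adjusted p = 0.151). With the arrays scaled to a common median CYC1 was at 0.025, COX5A at 0.15 and PET9 at 0.59, of which PET9 was called (adjusted p = 0.0385). Of 6 other genes under Rox1 or oxygen control, 2 fell and none rose (median -0.43): ERG25, a sterol methyl oxidase, by 0.69 (adjusted p = 0.0119) and ERG11, the lanosterol demethylase, by 0.47 (adjusted p = 0.0353). The share called in this list, 33.3%, was near the 32.6% of all genes. With the arrays scaled to a common median, ERG25 was at -0.30 (adjusted p = 0.277) and ERG11 at -0.033 (adjusted p = 0.903).

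Of 7 other genes of haem synthesis, 1 rose and 6 were not called (median 0.087, 14.3% called against 32.6% of all genes). That gene, HEM12, encodes uroporphyrinogen decarboxylase, whose product is the substrate of the HEM13 enzyme. It averaged 596 ± 55.9 in the deletion strain and 329 ± 45.0 in the wild type (log2 difference 0.86, SE 0.17, limma adjusted p = 0.00479, but 0.62 and adjusted p = 0.353 on the deposited scale). Of 12 genes activated by haem through Hap1 or the Hap4 complex, 1 rose, 3 fell and 8 were not called (median -0.075), a share of 33.3% called, near the 32.6% of all genes. CYB2, the lactate dehydrogenase of mitochondria, fell by 1.01 (adjusted p = 0.00701), SOD2, the mitochondrial superoxide dismutase, by 0.74 (adjusted p = 0.00613) and CTT1, the cytosolic catalase, by 0.66 (adjusted p = 0.0256), while QCR6, a subunit of respiratory complex III, rose by 0.68 (adjusted p = 0.0079). CYB2 kept its call in all 19 other settings, while CTT1 lost it in 9 and SOD2 and QCR6 in 2 each.

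Genes that modify eIF5A were higher in the deletion strain where they were called. The protein carries hypusine, an amino acid made from spermidine in steps catalysed by Dys1 and Lia1. Of 6 hypusine and polyamine genes, 3 rose and 3 were not called, with no fall (median 0.89). That is 50% called, all higher, against 32.6% of all genes called and 16.3% higher. DYS1 averaged 977 ± 215 in the deletion strain and 566 ± 41.3 in the wild type (log2 difference 0.77, SE 0.18, limma adjusted p = 0.012). LIA1 averaged 631 ± 182 in the deletion strain and 302 ± 41.1 in the wild type (1.03, SE 0.22, adjusted p = 0.00678). SPE2, which makes the aminopropyl donor for spermidine, averaged 770 ± 139 in the deletion strain and 354 ± 34.1 in the wild type (1.11, SE 0.18, adjusted p = 0.00174). On the deposited scale DYS1, LIA1 and SPE2 were at 0.59, 0.80 and 0.89 and not past the threshold (adjusted p = 0.363, 0.201 and 0.138), and with the station block DYS1 and LIA1 missed it (adjusted p = 0.111 and 0.124).

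Among fatty acid genes, which supply the substrate of the OLE1 enzyme, 5 of 10 fell, 1 rose and 4 were not called (median -0.32). That is 60% called and 50% lower, against 32.6% and 16.3% of all genes. ELO1, an elongase of medium-length fatty acids, averaged 1176 ± 164 in the deletion strain and 3366 ± 163 in the wild type (log2 difference -1.53, SE 0.15, limma adjusted p = 0.000199) and kept its call in all 19 other settings. FAA2, an acyl-CoA synthetase, fell by 0.70 (adjusted p = 0.0207, lost in 5 of 18 settings), and ACB1, the acyl-CoA binding protein, rose by 0.60 (adjusted p = 0.00787). The subunits of fatty acid synthase, FAS1 and FAS2, fell by 0.44 (adjusted p = 0.0207) and 0.53 (adjusted p = 0.021), and so did ACC1, the acetyl-CoA carboxylase, named after its values were seen, by 0.45 (adjusted p = 0.0279). With the arrays scaled to a common median FAS1 and FAS2 were at -0.093 and -0.094 (adjusted p = 0.695 and 0.705). ACC1 was not followed in that setting. Its deposited values were 6152.5, 6690.8 and 4276 on deletion arrays 1 to 3, whose medians were 139.6, 126.5 and 78. On wild-type arrays 1 to 3 they were 7033.4, 7640.9 and 6752.2, with medians of 146.5, 174.8 and 105.1. Set against these medians, the ACC1 values of the strains overlapped. The next FAS2 probe set without a suffix had the opposite direction (1.199, adjusted p = 0.0187), at 52.6 in the deletion strain and 22.1 in the wild type, so it passed the dim filter only through its deletion level. Brighter FAS2 probe sets with a suffix, 5 of them, were called lower (-0.90 to -0.55).

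**Figure D4:**
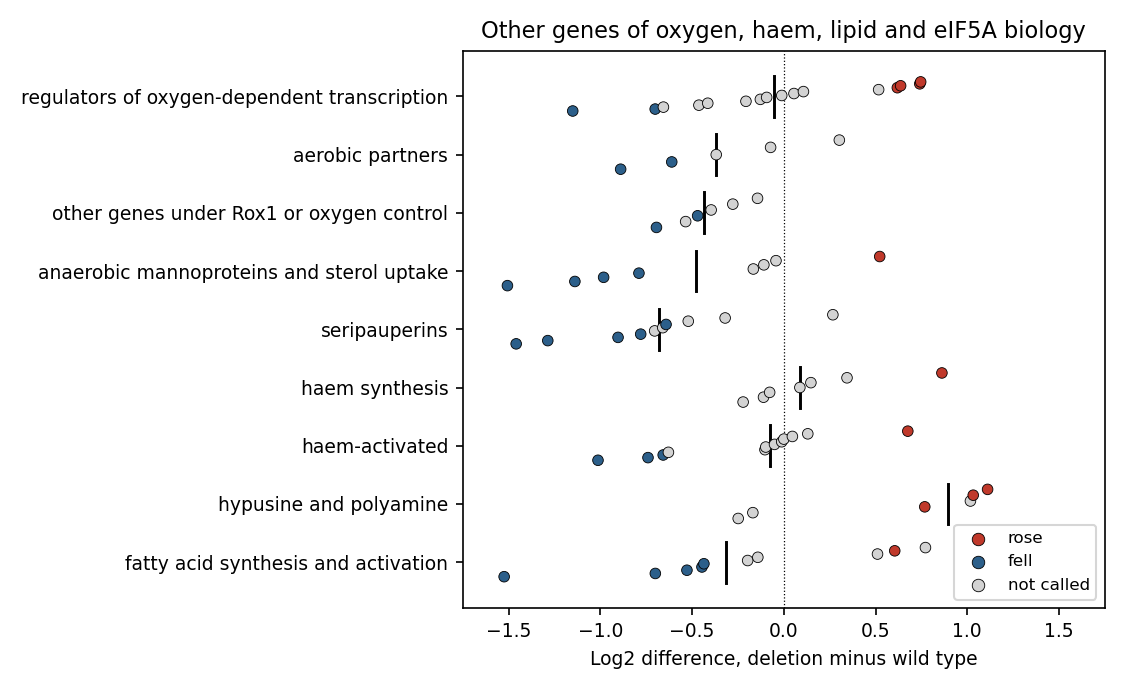
Log2 difference (deletion minus wild type) of each of the 80 tested genes in 9 lists, 1 point per gene, red where it rose, blue where it fell and grey where it was not called, with the list median as a black bar. The medians run from -0.68 for the seripauperins to 0.89 for the hypusine and polyamine genes.

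The genes beside the 10 on the chromosome, taken from the gene order of assembly R64, did not follow them as a group. Of 20 genes that flank a member directly, 18 had a probe set and 16 were tested, of which 2 rose, 5 fell and 9 were not called (median -0.18), against 32.6% of all genes called. TAH11, a DNA replication licensing gene on one side of ANB1, averaged 191 ± 30.8 in the deletion strain and 530.1 ± 81.0 in the wild type and fell (log2 difference -1.48, SE 0.19, limma adjusted p = 0.000632), a call that held in all 19 other settings. CYC1, on the other side and transcribed away from ANB1, is given above at -0.37. The genes beside HYP2, UTR5 and MTC7, were among the dimmest and were not tested. Beside HEM13, NRG1, a repressor of glucose-repressed genes, fell by 1.15 (adjusted p = 0.021) and RPC11, an RNA polymerase III subunit, rose by 0.85 (adjusted p = 0.00955). Beside AAC3, YBR085C-A fell by 0.63 (adjusted p = 0.00918), beside OLE1 SDS23 fell by 0.84 (adjusted p = 0.0182), and beside TIR1 the proteasome gene PRE1 rose by 0.77 (adjusted p = 0.00632). DAN4, given above, lies beside DAN1. With the station block only 1 of the 16 was called, and without wild-type replicate 3 there were 4.

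**Figure D5:**
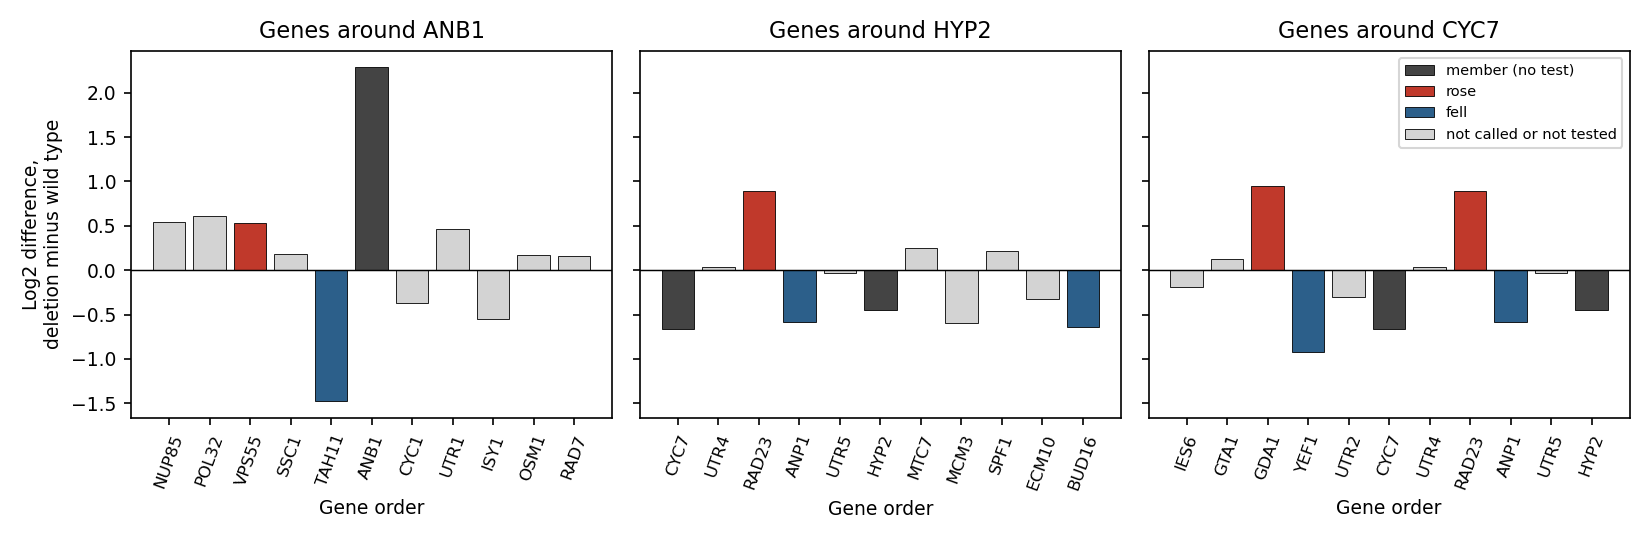
Log2 difference (deletion minus wild type) of the 5 genes on either side of ANB1, HYP2 and CYC7 in chromosome order, with the members in dark grey, genes that rose in red, genes that fell in blue and others in light grey. ANB1 at 2.29 stands beside TAH11 at -1.48 and CYC1 at -0.37, and HYP2 and CYC7 lie 5 genes apart on one chromosome.

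The genes whose profile over the 6 arrays was most like that of ANB1 were NRE1, PHO5, SNR56, SNR44 and SUL1. Likeness was the Euclidean distance between log2 values centred on the wild-type mean, which was 0.83 for NRE1, 0.86 for PHO5, 0.96 for SNR56, 1.01 for SNR44 and 1.02 for SUL1. Their log2 differences were 2.14, 2.10, 2.10, 2.11 and 2.10. NRE1 (YIR035C) read 419, 234 and 525 on the deletion arrays and 41.35, 105 and 139 on the wild-type arrays, so its lowest array was wild-type replicate 1, as it was for ANB1. PHO5 encodes a secreted acid phosphatase, SNR56 and SNR44 are small nucleolar RNA genes, and SUL1 encodes a sulfate permease. These 5 were picked from the same arrays that define the ANB1 profile, and a description of likeness is all they give.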

How the data were processed

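The authors deposited a linear intensity for each of 9335 probe sets on every array. How they summarised and scaled it is not stated in the labels or file headers. The run information files, deposited per array, gave the fluidics station and the hybridisation and scan batches, and 0 value columns were left unmapped. The trimmed means (2% at each end) ranged 1.88-fold, above the limit of 1.2, so the intensities were quantile normalised, raised to a floor at the 10th percentile and log2 transformed. Control probe sets (60) were left out, as were the dimmest 25% of the rest, and the remaining 6956 were compared with limma 3.58.1 in R 4.3.3 (lmFit, eBayes with an intensity trend, Benjamini-Hochberg adjustment over all 6956, called under 0.05). Every adjusted p is limma's. Precision is limited by how few arrays there are, with a median SE of 0.20 (log2). The test was checked on simulated data.

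The platform annotation gave 6504 probe sets 1 symbol, all of which matched a gene ID of the R64 assembly's gene table, 328 several and 2503 none. A gene was read from its brightest probe set without a suffix. The 10 genes, the lists and the naming rule were chosen with earlier results of these data known. Named were the 10 genes, CBC2, the direct neighbours of ANB1 and HYP2 and any other direct neighbour that was called, up to 5 called genes a list by smallest p, the aerobic paralogues and HMG2, and the 5 genes nearest to ANB1. Replicate numbers are shared by the strains but did not pair the arrays: deviations from the strain mean of same-numbered arrays correlated at -0.23, -0.090 and 0.077. Alternatives were the deposited scale, median scaling, other floors, a pseudocount of 16, other filters and variance models, blocks for replicate number, scan day and station, array weights, each array left out, and a gene's next probe set. DAN1 was filtered out, and its value has no test in any case.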

Additional observations from a re-analysis of the deposited data

How the results depend on the processing

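The counts of calls depended most on the scale and on the fluidics station. On the deposited scale 728 probe sets and 506 genes were called, 9 of the listed genes and 2 of the direct neighbours, against 2187, 1711, 34 and 7 in the main setting, and with the station as a block 675, 511, 10 and 1. The median of all genes was -0.25 on the deposited scale and 0.068 with the arrays scaled to a common median. Without the filter on dim probe sets 4 neighbours were called. Leaving out each array in turn gave 1476 to 1957 probe sets, 1132 to 1507 genes (1132 without deletion replicate 1), 24 to 32 listed genes and 4 to 7 neighbours (4 without wild-type replicate 3). The ANB1 difference was 1.61 with a pseudocount of 16, 1.82 with the station block and 1.97 to 2.52 with an array left out. FAS2 had 1.199 from its next probe set. The replicate block gave 1911 probe sets and 33 listed genes, and TIR3 and FAS1 lost their calls with it (adjusted p = 0.0571 and 0.0561). Of 32 named list genes, 6 kept their call in every setting that tested them. The causes were not tested. No other probe set was named for any of the 10 genes. The lowest signals limit ANB1, AAC3 and DAN1, and the size of the HEM13 difference.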

Other observations

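Deletion replicate 3 stood apart from the other deletion arrays for several of the 10 genes. It had the lowest normalised ROX1 value (61.1, against 139 and 157), the highest ANB1 value (112, against 82.1 and 81.1) and the lowest AAC3 value (35.7, against 74.4 and 68.8). On the deposited scale its ANB1 value was instead the lowest of the deletion arrays (66.9, against 90.8 and 79.5). Deletion replicate 3 was also the dimmest array, with a trimmed mean of 252. It had the highest 3′ to 5′ ratio of the TATA-binding protein gene, 5.13, against 2.48 to 3.85 on the other 5 arrays. For ACT1 it had the lowest such ratio, 1.02, against 1.15 to 1.47 on the others. The part of array brightness and of RNA integrity in these values was not tested.

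Probe sets named for a single lipid gene disagreed in places. Of 7 other tested FAS2 probe sets, 5 were called lower and 1 higher (log2 differences from -0.90 to 1.199). Of 7 other FAS1 probe sets none was called (-0.32 to -0.074), and of 4 other AUS1 probe sets 3 were called lower (-1.16 to -0.14). These genes were singled out after their values were seen.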
